A study of Homo sapiens with 12 samples.

Results

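The chromatin modifiers and remodelers described here were 53 genes chosen by name from the 26475 gene symbols of an RNA-sequencing table of pancreatic cancer cells. They comprised 13 histone demethylases, 12 deacetylases, 5 acetyltransferases, 5 Polycomb genes, 9 SWI/SNF genes, 6 genes of DNA methylation and 3 genes of chromatin architecture and reading. The study asked how pancreatic ductal adenocarcinoma (PDAC) cells respond to, and become resistant to, inhibition of lactate dehydrogenase A (LDHA), the glycolytic enzyme that converts pyruvate to lactate. The 4 groups held 3 replicates each and were made from MIAPaCa2, an established PDAC cell line. They were parental cells treated with vehicle (labelled as untreated), parental cells treated with the LDHA inhibitor sodium oxamate, oxamate-resistant cells treated with vehicle, and oxamate-resistant cells treated with oxamate. The resistant cells were selected by culture in oxamate and kept as isolated populations rather than single-cell clones, and only 1 resistant MIAPaCa2 population was sequenced in these samples. The labels do not say whether the replicates were separate cultures, so the p-values measure the spread between these libraries, which may be technical.

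Chromatin enzymes add, remove or read chemical marks on histones and DNA, and many of them consume metabolites as cofactors. Acetyltransferases use acetyl-CoA, the sirtuin deacetylases use NAD, most histone demethylases and the TET enzymes use 2-oxoglutarate, oxygen and iron, and methyltransferases use S-adenosylmethionine. Polycomb complexes keep genes silent through histone methylation and ubiquitination, SWI/SNF complexes move nucleosomes with the energy of ATP, and genes for SWI/SNF subunits are recurrently mutated in pancreatic cancer.

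Levels are given as CPM, the expected counts of a gene relative to its library's total as corrected by TMM, and differences as log2 fold changes with their standard error (SE) from edgeR's quasi-likelihood test on all 12 libraries. A gene was said to rise or fall at a Benjamini-Hochberg adjusted p under 0.05 over the 14582 genes tested, and a second threshold, that of the study, was an unadjusted p under 0.05 with a fold change over 1.5. The libraries held between 46698729 and 114222169 expected counts, and every parental library was deeper than every resistant one. The 53 genes took between 0.341% and 0.421% of the counts. Keratins KRT8, KRT18 and KRT19 and vimentin were abundant in all libraries, and EPCAM was near 0. Of the immune markers reported, PTPRC and CD3E were at or near 0 and CD68 was between 56.4 and 220.2 CPM. Of 5 fibroblast markers, DCN, LUM and PDGFRB were at or near 0, COL1A1 was between 0.901 and 2.03 CPM and COL1A2 was between 693 and 950.0 CPM. The 3 endothelial markers summed to between 0.619 and 1.24 CPM. The part of these markers in the results was not tested. The summed level of 4 nuclear-retained RNAs (MALAT1, NEAT1, KCNQ1OT1 and MIAT) was between 321 and 357 CPM in vehicle-treated parental cells. It was 557, 544 and 1187 CPM in oxamate-treated parental cells, 583, 534 and 1112 CPM in vehicle-treated resistant cells, and 1238, 1080 and 1407 CPM in oxamate-treated resistant cells. Replicate 3 of oxamate-treated parental cells and replicate 3 of vehicle-treated resistant cells thus stood apart from the other replicates of their groups. The part of nuclear-retained RNA in the results below was not tested, and values without 1 or both of these libraries are given beside some of them. In RNA from whole cultures, a lower level in every cell and a smaller number of expressing cells cannot be told apart.

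Of the 53 genes, 51 had enough counts to be tested. KDM6A, a demethylase that removes the Polycomb mark, and ARID1B, the alternative to ARID1A in SWI/SNF complexes, were at 0 counts in all 12 libraries. A floor of 3 counts per library allows each of them a level of at most 0.0283 to 0.0581 CPM, depending on the library, and floors cover counting error only. Whether these genes were not expressed or their reads were not assigned to them was not tested.

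**Figure D1:**
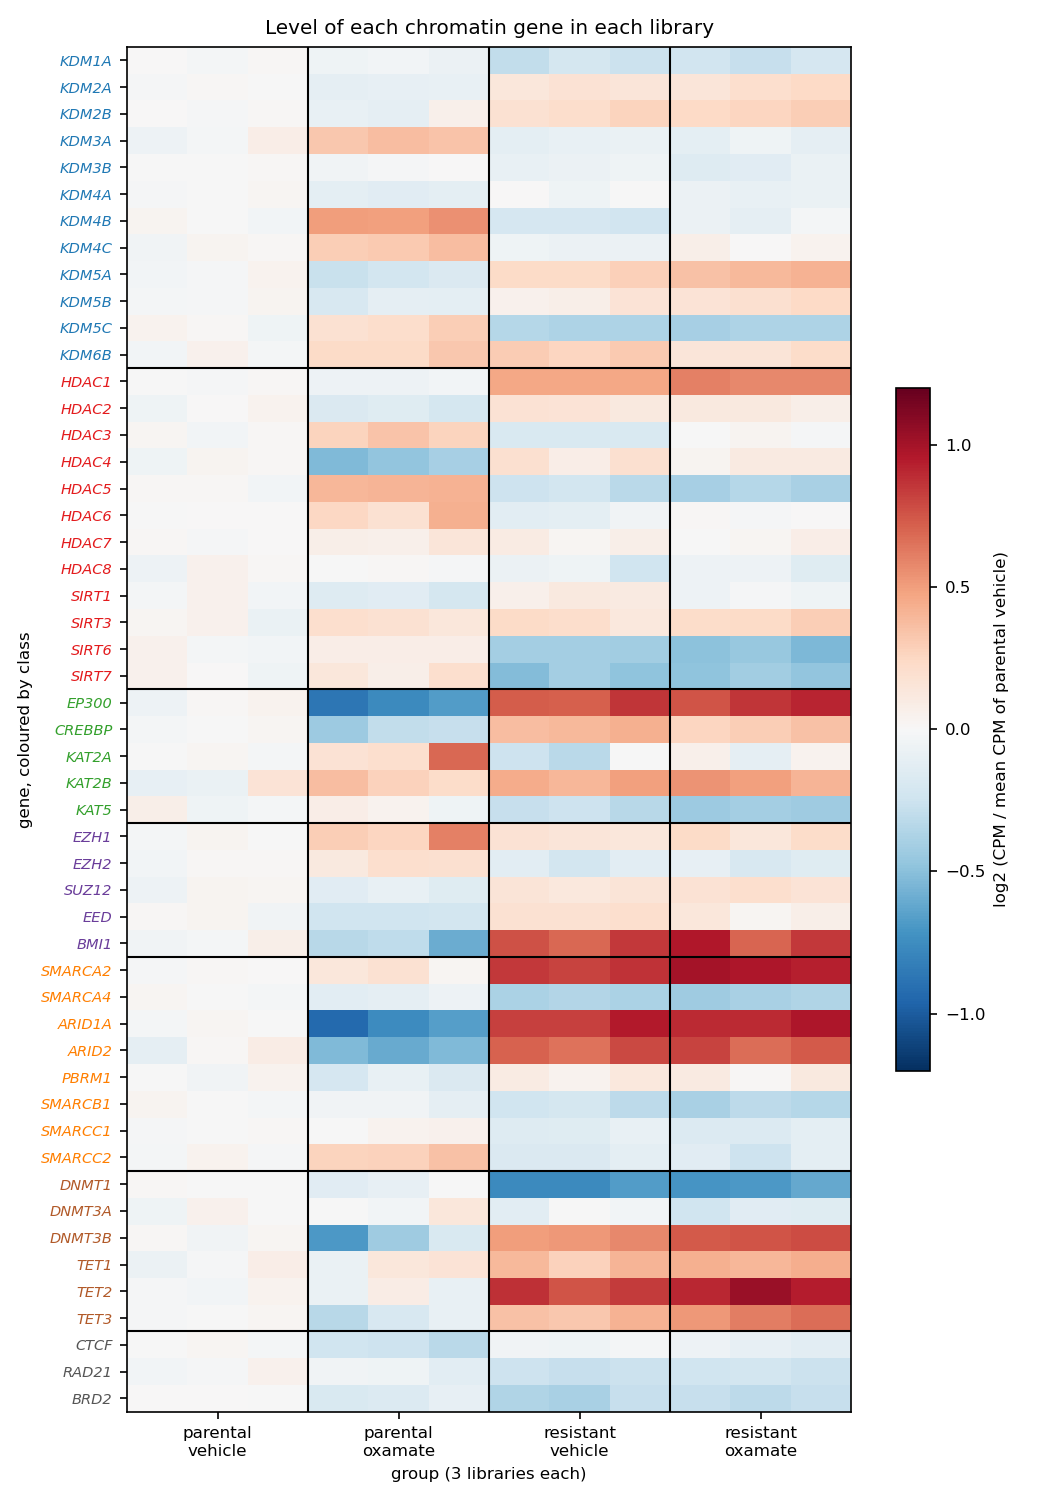
Level of the 51 tested chromatin genes (rows, coloured by class) in the 12 libraries (columns, 3 per group), as the log2 ratio of CPM to the mean CPM of vehicle-treated parental cells. EP300, ARID1A, ARID2, BMI1 and DNMT3B are blue in oxamate-treated parental cells and red in both groups of resistant cells, whereas DNMT1 is blue in the resistant cells.

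Among the histone demethylases, KDM4B rose most after oxamate in parental cells, and KDM5A and KDM5C, 2 related demethylases of the promoter mark, moved in opposite directions. KDM4B, which removes methyl groups linked to heterochromatin, was at 111, 109 and 106 CPM in vehicle-treated parental cells, 154, 152 and 159 CPM in oxamate-treated parental cells, 94.4, 94.4 and 92.4 CPM in vehicle-treated resistant cells and 104, 101 and 107 CPM in oxamate-treated resistant cells. The 3 oxamate-treated parental libraries were above all others, the vehicle-treated resistant libraries were the lowest, and the oxamate-treated resistant libraries overlapped vehicle-treated parental cells. Its log2 fold change after oxamate was 0.51 ± 0.028 (SE, adjusted p = 6.01e-10) in parental cells and 0.15 ± 0.029 (SE, adjusted p = 0.0024) in resistant cells, and the difference between these responses was -0.37 ± 0.04 (SE, adjusted p = 2.64e-06). Between vehicle-treated resistant and parental cells it was -0.21 ± 0.028 (SE, adjusted p = 4.11e-06), a direction that turned to 0.0053 when libraries were scaled by their size alone. KDM5A, whose product removes methyl groups from active promoters, was at 85.7, 87.0 and 90.0 CPM in vehicle-treated parental cells, 72.6, 75.1 and 77.6 CPM in oxamate-treated parental cells, 103, 103 and 107 CPM in vehicle-treated resistant cells and 112, 114.5 and 117 CPM in oxamate-treated resistant cells. None of its 4 groups overlapped: oxamate-treated parental cells were lowest and oxamate-treated resistant cells highest. It fell after oxamate in parental cells by 0.22 on the log2 scale, rose by 0.14 in resistant cells, and between the oxamate-treated groups differed by 0.61 ± 0.03 (SE, adjusted p = 2.12e-11). KDM5C, an X-linked relative of KDM5A, was at 130.1, 128 and 122 CPM in vehicle-treated parental cells, 143, 146 and 155 CPM in oxamate-treated parental cells, 99.6, 98.2 and 98.3 CPM in vehicle-treated resistant cells and 95.8, 97.7 and 97.7 CPM in oxamate-treated resistant cells. Every resistant library was below every parental one, with a log2 fold change of -0.36 ± 0.032 (SE, adjusted p = 3.74e-08) under vehicle and -0.61 ± 0.032 (SE, adjusted p = 3.66e-11) under oxamate.

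Of the remaining 9 tested demethylases, KDM3A and KDM4C, singled out here after their values were seen, rose after oxamate in parental cells by 0.35 and 0.33 on the log2 scale. KDM2A, KDM4A and KDM5B fell in that comparison, with log2 fold changes of -0.098, -0.12 and -0.14. In resistant cells the log2 fold change of KDM3A after oxamate was 0.0031 ± 0.032 (SE, adjusted p = 0.958), which did not pass the test. That of KDM4C was 0.10 ± 0.033 (SE, adjusted p = 0.0354), a call lost in most fits that left out a library of that comparison. KDM6B, singled out in the same way, was at 49.0 ± 1.49 CPM (mean ± SD, n = 3) in vehicle-treated parental cells and 58.9 ± 2.25 CPM after oxamate, against 60.0 ± 1.33 CPM and 55.3 ± 1.66 CPM in resistant cells. It rose after oxamate in parental cells and fell in resistant cells. The flavin-dependent demethylase KDM1A was lower in resistant cells under vehicle, with a log2 fold change of -0.26 ± 0.027 (SE, adjusted p = 2.73e-07). That call was not kept under every other processing setting.

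Among the deacetylases, HDAC1 was higher in resistant cells, and HDAC5 responded to oxamate in opposite directions in parental and resistant cells. HDAC1, a class I enzyme of the main corepressor complexes, was at 163, 162 and 165 CPM in vehicle-treated parental cells, 157, 157 and 160.1 CPM in oxamate-treated parental cells, 225, 226 and 225 CPM in vehicle-treated resistant cells and 248, 244 and 244 CPM in oxamate-treated resistant cells. Every resistant library was above every parental one and the replicates lay within a few CPM of each other. The log2 fold change between resistant and parental cells was 0.46 ± 0.022 (SE, adjusted p = 1.91e-11) under vehicle and 0.63 ± 0.022 (SE, adjusted p = 2.40e-13) under oxamate. HDAC3, the class I enzyme of the NCoR and SMRT complexes, was at 75.3, 72.8 and 74.7 CPM in vehicle-treated parental cells, 89.7, 94.4 and 89.6 CPM in oxamate-treated parental cells, 65.3, 65.5 and 65.5 CPM in vehicle-treated resistant cells and 73.8, 75.9 and 73.5 CPM in oxamate-treated resistant cells. It rose after oxamate in both cell types, by 0.30 ± 0.027 (SE, adjusted p = 1.60e-07) in parental cells and by 0.19 ± 0.028 (SE, adjusted p = 0.000353) in resistant cells. HDAC5, a class IIa enzyme that shuttles between nucleus and cytoplasm, was at 113.8, 113.6 and 110.1 CPM in vehicle-treated parental cells, 149, 149.6 and 151 CPM in oxamate-treated parental cells, 94.8, 96.4 and 89.6 CPM in vehicle-treated resistant cells and 85.3, 88.9 and 86.0 CPM in oxamate-treated resistant cells. Oxamate-treated parental cells were above all other groups and resistant cells below all parental libraries. The log2 fold change after oxamate was 0.41 ± 0.028 (SE, adjusted p = 7.98e-09) in parental cells and -0.11 ± 0.03 (SE, adjusted p = 0.016) in resistant cells, and between the oxamate-treated groups it was -0.79 ± 0.029 (SE, adjusted p = 5.88e-13). The call of HDAC5 in resistant cells was lost in most fits that left out a library of that comparison. SIRT7, a nucleolar sirtuin, was at 38.2, 37.0 and 35.7 CPM in vehicle-treated parental cells, 40.7, 38.9 and 42.4 CPM in oxamate-treated parental cells, 25.8, 27.9 and 26.4 CPM in vehicle-treated resistant cells and 26.4, 27.7 and 26.5 CPM in oxamate-treated resistant cells. Its resistant libraries all lay below its parental ones, with a log2 fold change of -0.47 ± 0.041 (SE, adjusted p = 3.24e-08) under vehicle and -0.60 ± 0.042 (SE, adjusted p = 1.25e-09) under oxamate. Per kilobase of the longest coding transcript, the most abundant deacetylase was HDAC1 at 77.0 CPM in vehicle-treated parental cells and 106 CPM in vehicle-treated resistant cells, against 13.5 and 14.98 CPM for its paralog HDAC2. These transcripts have 2124 bases for HDAC1 and 9874 for HDAC2. Not divided by length, HDAC1 was at 163 and 225 CPM and HDAC2 at 133 and 148 CPM in these groups. Which transcripts were expressed was not tested.

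EP300 changed most among the acetyltransferases in 3 of the 4 comparisons, all but the oxamate response of resistant cells. EP300, a transcriptional coactivator that acetylates histones at enhancers, was at 43.9, 46.4 and 47.1 CPM in vehicle-treated parental cells, 25.1, 26.9 and 28.8 CPM in oxamate-treated parental cells, 75.9, 75.3 and 83.0 CPM in vehicle-treated resistant cells and 77.5, 83.0 and 86.3 CPM in oxamate-treated resistant cells. Its level after oxamate in parental cells lay below every other library, and every resistant library lay above every parental one. The log2 fold change after oxamate was -0.76 ± 0.054 (SE, adjusted p = 1.03e-08) in parental cells and 0.076 ± 0.049 (SE, adjusted p = 0.288) in resistant cells. Between resistant and parental cells it was 0.77 ± 0.05 (SE, adjusted p = 9.35e-10) under vehicle and 1.61 ± 0.054 (SE, adjusted p = 1.67e-13) under oxamate. CREBBP, the closest relative of EP300, was at 41.3, 41.7 and 42.5 CPM in vehicle-treated parental cells, 30.9, 34.1 and 34.6 CPM in oxamate-treated parental cells, 54.1, 54.9 and 56.1 CPM in vehicle-treated resistant cells and 49.9, 51.3 and 53.4 CPM in oxamate-treated resistant cells. Its groups stood in the same order except that both resistant groups were exchanged, with a log2 fold change after oxamate of -0.33 ± 0.039 (SE, adjusted p = 2.87e-06) in parental cells and -0.093 ± 0.038 (SE, adjusted p = 0.095) in resistant cells. KAT5, the catalytic subunit of the TIP60 complex, was at 30.4, 27.8 and 28.6 CPM in vehicle-treated parental cells, 30.6, 29.8 and 27.9 CPM in oxamate-treated parental cells, 23.9, 24.3 and 23.0 CPM in vehicle-treated resistant cells and 21.3, 21.9 and 21.5 CPM in oxamate-treated resistant cells. The parental groups overlapped and every resistant library was below them, with a log2 fold change of -0.45 ± 0.044 (SE, adjusted p = 9.13e-08) between the oxamate-treated groups. KAT2A, an acetyltransferase of the SAGA complex singled out after its values were seen, rose after oxamate in parental cells by 0.38 on the log2 scale, and by 0.19 without replicate 3 of that group.

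In the Polycomb group, BMI1, a subunit of the ubiquitinating complex PRC1, differed more between the cell types than the 4 genes of the methylating complex PRC2. BMI1 was at 8.08, 8.18 and 8.73 CPM in vehicle-treated parental cells, 6.63, 6.74 and 5.52 CPM in oxamate-treated parental cells, 14.2, 13.5 and 14.96 CPM in vehicle-treated resistant cells and 16.2, 13.5 and 15.04 CPM in oxamate-treated resistant cells. Oxamate-treated parental libraries were lowest and all resistant libraries highest, while both resistant groups overlapped. Its log2 fold change was -0.41 ± 0.081 (SE, adjusted p = 0.000457) after oxamate in parental cells, 0.77 ± 0.074 (SE, adjusted p = 1.07e-07) between the vehicle-treated groups and 1.25 ± 0.08 (SE, adjusted p = 4.27e-10) between the oxamate-treated groups. EED, the PRC2 subunit that binds the methylated histone, was at 22.2, 22.6 and 21.4 CPM in vehicle-treated parental cells, 18.7, 18.8 and 19.0 CPM in oxamate-treated parental cells, 25.1, 25.1 and 25.3 CPM in vehicle-treated resistant cells and 24.2, 22.5 and 23.2 CPM in oxamate-treated resistant cells. It fell after oxamate in parental cells by 0.23 on the log2 scale and in resistant cells by 0.11. The call in resistant cells was lost in most fits that left out a library of that comparison. The catalytic subunits EZH1 and EZH2 both rose after oxamate in parental cells, EZH1 by 0.40 ± 0.064 (SE, adjusted p = 6.96e-05), or 0.27 without replicate 3 of the treated group, and EZH2 by 0.17 ± 0.034 (SE, adjusted p = 0.000367). SUZ12, the scaffold of PRC2, had a log2 fold change of -0.12 ± 0.029 (SE, adjusted p = 0.00213) in that comparison.

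Among the SWI/SNF genes, the DNA-binding subunits ARID1A and ARID2 and the ATPase SMARCA2 were higher in resistant cells. ARID1A and ARID2 mark the BAF and PBAF forms of the complex. The ATPase SMARCA4 and the core subunit SMARCB1 were lower under vehicle. The call of SMARCB1 was not kept under every other processing setting. SMARCC1 and SMARCC2 were also lower under vehicle, with log2 fold changes of -0.13 and -0.16 that turned positive with library size alone. PBRM1 did not pass the test under vehicle (0.090) and was higher in resistant cells under oxamate (0.24). ARID1A was at 28.9, 29.9 and 29.3 CPM in vehicle-treated parental cells, 15.4, 17.4 and 18.5 CPM in oxamate-treated parental cells, 52.0, 52.0 and 56.9 CPM in vehicle-treated resistant cells and 54.7, 54.7 and 57.6 CPM in oxamate-treated resistant cells. The oxamate-treated parental libraries were below all others and both resistant groups, which overlapped each other, were above all parental libraries. Its log2 fold change was -0.77 ± 0.055 (SE, adjusted p = 1.03e-08) after oxamate in parental cells and 0.054 ± 0.049 (SE, adjusted p = 0.456) in resistant cells, and 0.87 ± 0.049 (SE, adjusted p = 2.12e-10) and 1.70 ± 0.054 (SE, adjusted p = 9.92e-14) between resistant and parental cells under vehicle and oxamate. ARID2 was at 10.8, 11.7 and 12.3 CPM in vehicle-treated parental cells, 8.06, 7.63 and 8.06 CPM in oxamate-treated parental cells, 18.9, 18.3 and 20.1 CPM in vehicle-treated resistant cells and 20.4, 18.4 and 19.4 CPM in oxamate-treated resistant cells. The order of its groups was that of ARID1A, with a log2 fold change of -0.55 ± 0.06 (SE, adjusted p = 1.26e-06) after oxamate in parental cells and 1.29 ± 0.06 (SE, adjusted p = 7.86e-12) between the oxamate-treated groups. SMARCA2 was at 14.2, 14.5 and 14.4 CPM in vehicle-treated parental cells, 15.8, 16.3 and 14.5 CPM in oxamate-treated parental cells, 25.8, 25.1 and 26.1 CPM in vehicle-treated resistant cells and 28.6, 28.1 and 27.4 CPM in oxamate-treated resistant cells. Its resistant libraries were all above its parental ones by a log2 fold change of 0.84 ± 0.041 (SE, adjusted p = 3.11e-11) under vehicle and 0.86 ± 0.042 (SE, adjusted p = 1.60e-11) under oxamate. The responses of SMARCA2 to oxamate were 0.11 ± 0.043 (SE, adjusted p = 0.0323) in parental cells and 0.13 ± 0.04 (SE, adjusted p = 0.0324) in resistant cells. Both calls were lost in most fits that left out a library of their comparison. SMARCA4, singled out as the paralog of SMARCA2, was at 278 ± 4.42 CPM and 260.0 ± 6.05 CPM in parental cells and at 215 ± 2.54 CPM and 212 ± 4.92 CPM in resistant cells (mean ± SD, n = 3, vehicle before oxamate). Per kilobase it remained the more abundant ATPase, at 37.1 CPM in vehicle-treated resistant cells against 3.63 CPM for SMARCA2.

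Among the genes of DNA methylation, the maintenance methyltransferase DNMT1 was lower in resistant cells, while the de novo methyltransferase DNMT3B and the oxidizing enzymes TET2 and TET3 were higher. DNMT1 was at 279, 276 and 277 CPM in vehicle-treated parental cells, 253, 258 and 277 CPM in oxamate-treated parental cells, 163, 163 and 175 CPM in vehicle-treated resistant cells and 169.3, 172 and 181 CPM in oxamate-treated resistant cells. Every resistant library was below every parental one and oxamate changed neither cell type past the test, with log2 fold changes of -0.077 ± 0.036 (SE, adjusted p = 0.0781) and 0.058 ± 0.037 (SE, adjusted p = 0.28). Between resistant and parental cells the log2 fold change was -0.73 ± 0.036 (SE, adjusted p = 4.57e-11) under vehicle and -0.59 ± 0.037 (SE, adjusted p = 2.77e-10) under oxamate. DNMT3B was at 5.87, 5.62 and 5.9 CPM in vehicle-treated parental cells, 3.59, 4.3 and 5.1 CPM in oxamate-treated parental cells, 8.22, 8.3 and 8.66 CPM in vehicle-treated resistant cells and 9.66, 9.78 and 9.98 CPM in oxamate-treated resistant cells. These low levels did not overlap between any of the 4 groups, with oxamate-treated parental cells lowest and oxamate-treated resistant cells highest. Its log2 fold change was -0.41 ± 0.088 (SE, adjusted p = 0.000892) after oxamate in parental cells, 0.23 ± 0.081 (SE, adjusted p = 0.0602) in resistant cells and 1.17 ± 0.088 (SE, adjusted p = 3.18e-09) between the oxamate-treated groups. TET2 was at 5.63, 5.55 and 5.82 CPM in vehicle-treated parental cells, 5.35, 6.02 and 5.33 CPM in oxamate-treated parental cells, 10.4, 9.56 and 10.1 CPM in vehicle-treated resistant cells and 10.6, 11.6 and 10.9 CPM in oxamate-treated resistant cells. Its resistant libraries were all above its parental ones, by a log2 fold change of 0.83 ± 0.06 (SE, adjusted p = 3.90e-09) under vehicle and 0.99 ± 0.063 (SE, adjusted p = 3.81e-10) under oxamate. TET3 was at 12.0, 12.2 and 12.4 CPM in vehicle-treated parental cells, 9.67, 10.7 and 11.4 CPM in oxamate-treated parental cells, 15.6, 15.3 and 16.3 CPM in vehicle-treated resistant cells and 17.5, 18.7 and 19.4 CPM in oxamate-treated resistant cells. It fell in oxamate-treated parental cells, a call lost without replicate 1 of that group (log2 fold change -0.14 in place of -0.20), and rose after oxamate in resistant cells by 0.24 ± 0.055 (SE, adjusted p = 0.00664).

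The architectural protein CTCF, which shapes chromatin loops, was at 60.5, 61.7 and 59.9 CPM in vehicle-treated parental cells, 51.3, 51.04 and 48.4 CPM in oxamate-treated parental cells, 58.9, 58.7 and 59.8 CPM in vehicle-treated resistant cells and 58.3, 56.8 and 55.4 CPM in oxamate-treated resistant cells. The oxamate-treated parental libraries were below all others, with a log2 fold change of -0.27 ± 0.029 (SE, adjusted p = 9.44e-07) after oxamate in parental cells. The bromodomain reader BRD2, which binds acetylated histones, was at 177, 177 and 176 CPM in vehicle-treated parental cells, 156, 158 and 164 CPM in oxamate-treated parental cells, 138, 135 and 146 CPM in vehicle-treated resistant cells and 146, 142 and 145 CPM in oxamate-treated resistant cells. It was lower in resistant cells under vehicle, with a log2 fold change of -0.34 ± 0.03 (SE, adjusted p = 3.70e-08). Under oxamate it was -0.14 ± 0.03 (SE, adjusted p = 0.000394), which turned to 0.18 when libraries were scaled by their size alone. The cohesin subunit RAD21 was at 241 ± 7.24 CPM (mean ± SD, n = 3) in vehicle-treated parental cells and 201 ± 2.19 CPM in vehicle-treated resistant cells.

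**Figure D2:**
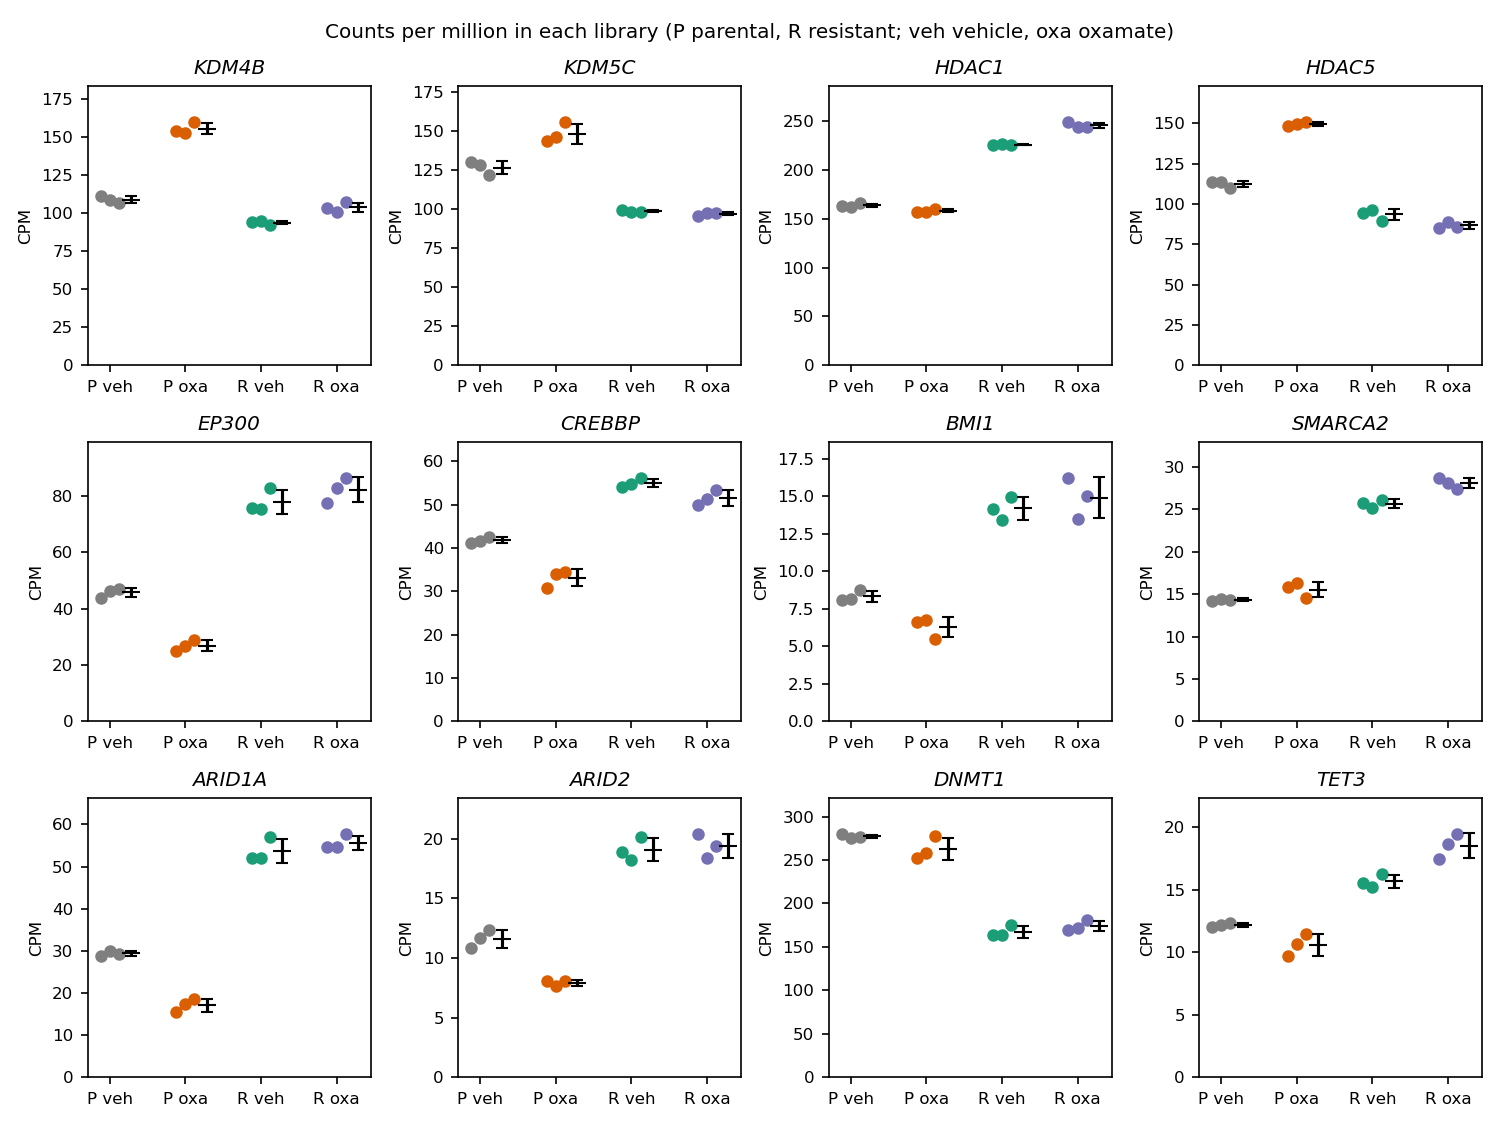
CPM of 12 chromatin genes in each library (coloured points, 3 per group) with the mean ± SD (black). Oxamate-treated parental cells hold the lowest values of EP300, CREBBP, BMI1, ARID1A, ARID2 and TET3 and the highest of KDM4B, KDM5C and HDAC5, and the resistant groups lie apart from vehicle-treated parental cells for all 12 genes but KDM4B.

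The first comparison asked how parental cells responded to oxamate. EP300, ARID1A, ARID2, HDAC4, BMI1 and DNMT3B fell by 0.41 to 0.77 on the log2 scale, and KDM4B, HDAC5, EZH1, KAT2A, KDM3A and KDM4C rose by 0.33 to 0.51. Without replicate 3 of oxamate-treated parental cells the values were 0.27 for EZH1, 0.19 for KAT2A, -0.31 for BMI1 and -0.56 for DNMT3B. In all, 18 of the 51 genes rose and 21 fell, and 2 passed the threshold of 1.5-fold (EP300 and ARID1A, both lower). Among all genes tested 28.3% rose, 30.4% fell and 9.88% passed 1.5-fold, and the median log2 fold change was -0.040 for the 51 genes and 0.0030 for all genes. By class, 5 of 12 demethylases rose and 4 fell, 7 of 12 deacetylases rose and 3 fell, 2 of 5 acetyltransferases rose and 2 fell, and 2 of 5 Polycomb genes rose and 3 fell. Of the 8 tested SWI/SNF genes 2 rose and 4 fell, of the 6 genes of DNA methylation 0 rose and 2 fell, and all 3 genes of architecture and reading fell. Both directions were thus present in each class of histone-modifying enzymes. Of the 39 calls, 34 were kept with each library left out in turn, and HDAC7, SIRT6, SMARCA2, TET3 and RAD21 lost theirs in at least 1 of these fits. Every other processing setting kept 33, and HDAC7, SIRT3, SIRT6, SIRT7, SMARCA2 and RAD21 lost theirs under at least 1 setting.

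In resistant cells the same treatment moved the genes by less. The changes furthest from 0 were those of TET3, DNMT3B, HDAC3 and KAT2A, which were between 0.19 and 0.24 on the log2 scale, and of these TET3 and HDAC3 passed the test. Of the 51 genes 8 rose, 6 fell and 0 passed 1.5-fold by edgeR, against 9.01%, 12.5% and 2.5% of all genes. DESeq2 called 6 higher and 4 lower and also none over 1.5-fold. The median size of the log2 fold change, regardless of sign, was 0.064 in resistant cells and 0.17 in parental cells, and 34 of the 51 genes changed by under 0.1 in resistant cells against 17 in parental cells. These sizes were not computed for all genes. Fewer of all genes also passed 1.5-fold in resistant cells, 2.5% against 9.88% in parental cells, so the smaller response was not particular to the 51 genes. Only 6 of the 14 calls were kept with each library left out in turn, those of KDM4B, KDM5A, HDAC1, HDAC3, SIRT1 and TET3. The number that fell was between 1 and 4 in these fits, and the number that rose between 5 and 8.

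The responses of both cell types were measured on separate libraries. KDM4B, KDM4C, HDAC3 and SMARCA2 rose in both, and SIRT1 and EED fell in both. KDM6B and HDAC5 rose in parental cells and fell in resistant cells, and KDM5A, KDM5B and TET3 fell in parental cells and rose in resistant cells. In resistant cells the calls of KDM4C, SMARCA2, EED, KDM6B, HDAC5 and KDM5B were lost in most fits that left out a library of that comparison. A further 16 genes fell in parental cells without passing the test in resistant cells, EP300, CREBBP, ARID1A, ARID2, BMI1, DNMT3B, CTCF and BRD2 among them, and 12 rose without passing it. The shares of all genes with these joint calls were not computed. Of all genes tested 28.3% rose and 30.4% fell in parental cells, against 9.01% and 12.5% in resistant cells. Tested directly, the difference between the responses (resistant minus parental) was positive for 17 genes and negative for 15, against 22.7% and 21.4% of all genes, and thus passed the test for 32, against 44.2% of all genes. It exceeded 1.5-fold for 3 genes, against 8.48% of all genes: EP300 with 0.84 ± 0.073 (SE, adjusted p = 2.98e-07), ARID1A with 0.83 ± 0.073 (SE, adjusted p = 3.50e-07) and DNMT3B with 0.63 ± 0.12 (SE, adjusted p = 0.000476). The most negative differences were those of HDAC5 with -0.52 ± 0.041 (SE, adjusted p = 1.09e-07) and KDM6B with -0.38 ± 0.049 (SE, adjusted p = 1.39e-05). The same test gave 0.015 ± 0.058 (SE, adjusted p = 0.855) for SMARCA2, so that a difference between its responses was not detected.

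**Figure D3:**
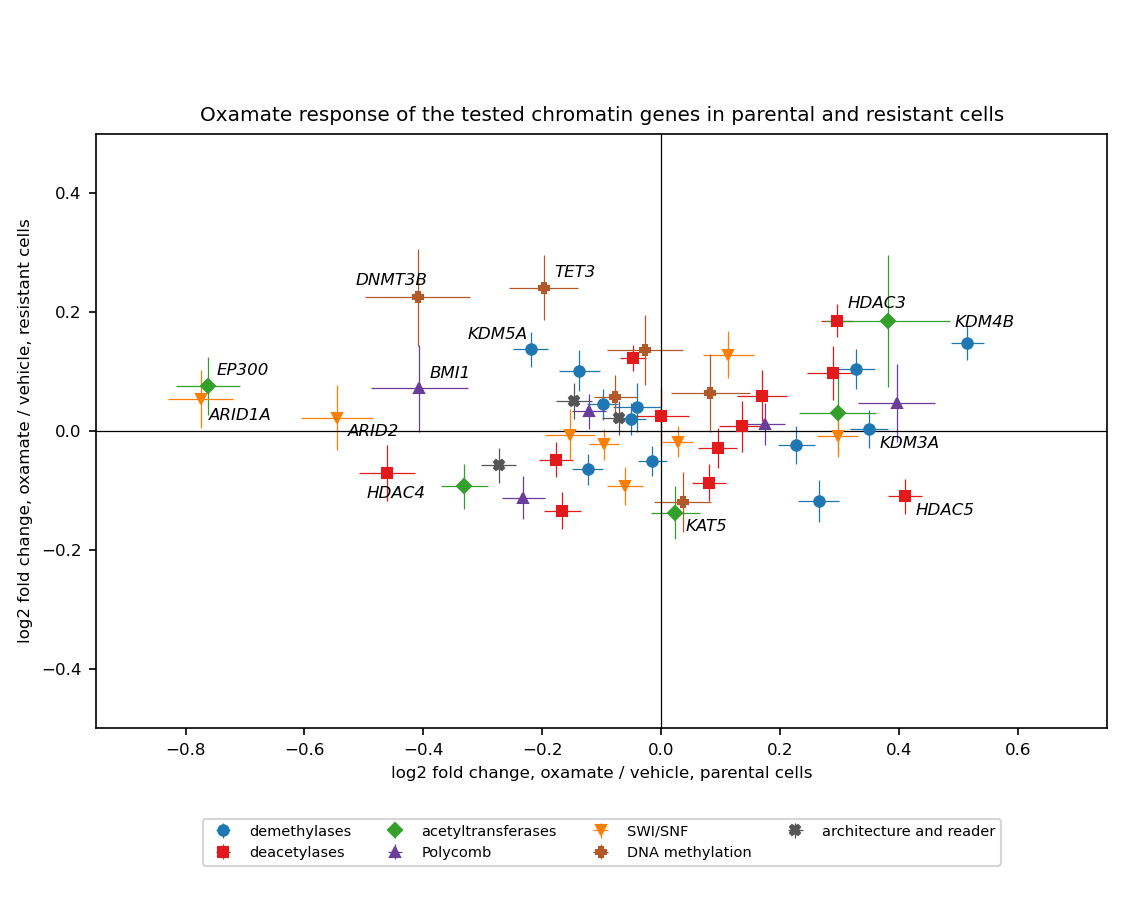
Log2 fold change after oxamate in parental cells (x axis) and in resistant cells (y axis) for the 51 tested genes, with bars of 1 SE and colours by class. The points spread from -0.77 to 0.51 along the x axis and from -0.14 to 0.24 along the y axis.

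The comparison of resistant with parental cells under vehicle asked what differed before renewed treatment. ARID1A, SMARCA2, TET2, BMI1, EP300 and ARID2 were higher by 0.72 to 0.87 on the log2 scale, and DNMT1, SIRT7, SIRT6, SMARCA4, KDM5C and BRD2 were lower by 0.34 to 0.73. In all 24 genes were higher and 19 lower, against 38.4% and 37.3% of all genes, and 7 passed 1.5-fold, 6 of them higher and DNMT1 lower, against 23.4% of all genes. Higher and lower genes were 5 and 5 of 12 demethylases, 5 and 5 of 12 deacetylases, 3 and 1 of 5 acetyltransferases, 4 and 1 of 5 Polycomb genes, 3 and 4 of 8 SWI/SNF genes, and 4 and 1 of 6 genes of DNA methylation. The median log2 fold change was 0.064 for the 51 genes and 0.025 for all genes. Scaling by library size alone moved the median of all genes from 0.025 to 0.24, a shift of 0.22, and gave 34 genes higher and 6 lower. Changes smaller than that shift depend on the scaling. The calls of KDM1A, HDAC5, KAT5, SMARCB1 and RAD21, lower by 0.26 to 0.29, were also not kept under every other processing setting.

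Under oxamate the distance between the cell types was larger. ARID1A, EP300, ARID2, BMI1 and DNMT3B were higher in resistant cells by 1.17 to 1.70 on the log2 scale, and HDAC5, KDM5C, SIRT7, DNMT1, KDM4B and SIRT6 were lower by 0.58 to 0.79. Of the 51 genes 23 were higher and 24 lower, against 40.6% and 39.7% of all genes, and 15 passed 1.5-fold, 11 higher and 4 lower, against 34.3% of all genes. Without replicate 3 of oxamate-treated parental cells 12 passed it. The 11 higher genes were KDM5A, HDAC1, EP300, CREBBP, BMI1, SMARCA2, ARID1A, ARID2, DNMT3B, TET2 and TET3, and the 4 lower ones KDM5C, HDAC5, SIRT7 and DNMT1. Scaling by library size alone moved the median of all genes from 0.015 to 0.34, a shift of 0.32, and gave 33 genes higher and 9 lower. Both comparisons of the cell types called 21 genes higher and 18 lower in common. They share no library but compare the same cell populations in the same fit. The share of all genes called alike in both was not computed. KDM6B and EZH1 were called higher under vehicle and lower under oxamate. They were lower under oxamate with TMM scaling but not with library size alone (KDM6B 0.23, EZH1 0.13). Without replicate 3 of oxamate-treated parental cells the log2 fold changes under oxamate were -0.060 for KDM6B, which no longer passed the test, and -0.077 for EZH1. The call of EZH1 under vehicle was lost in each of the 6 fits that left out 1 library of that comparison, with log2 fold changes between 0.14 and 0.17, and its call under oxamate was lost without replicate 2 of oxamate-treated resistant cells (-0.17).

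Ratios of paralogs within a library are free of the scaling of libraries. The log2 count ratio of SMARCA2 to SMARCA4 was -4.28 ± 0.036 (SD, n = 3) in vehicle-treated parental cells, -4.07 ± 0.11 in oxamate-treated parental cells, -3.07 ± 0.044 in vehicle-treated resistant cells and -2.91 ± 0.064 in oxamate-treated resistant cells. All resistant libraries were above all parental libraries, and the ratio of counts between these alternative ATPases was thus shifted towards SMARCA2. The log2 ratio of EP300 to CREBBP was 0.13 and -0.30 in vehicle- and oxamate-treated parental cells and 0.50 and 0.67 in the resistant groups, with no overlap between any of the 4 groups. That of HDAC4 to HDAC5 was -2.82 in vehicle-treated parental cells, -3.70 after oxamate, and -2.40 and -2.36 in resistant cells. That of DNMT3A to DNMT3B was 1.92 and 2.39 in parental cells and 1.33 and 0.99 in resistant cells. Over the 13 pairs that could be computed, groups did not overlap for 10 pairs between oxamate- and vehicle-treated parental cells, 6 in resistant cells, 11 between the vehicle-treated cell types and 10 between the oxamate-treated ones. For comparison, the CPM of single genes did not overlap for 61.5%, 41%, 77.6% and 81.2% of all genes tested in these comparisons, so that most of these counts lie near what single genes show. These ratios compare counts and not molecules, since they were not divided by transcript length.

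**Figure D4:**
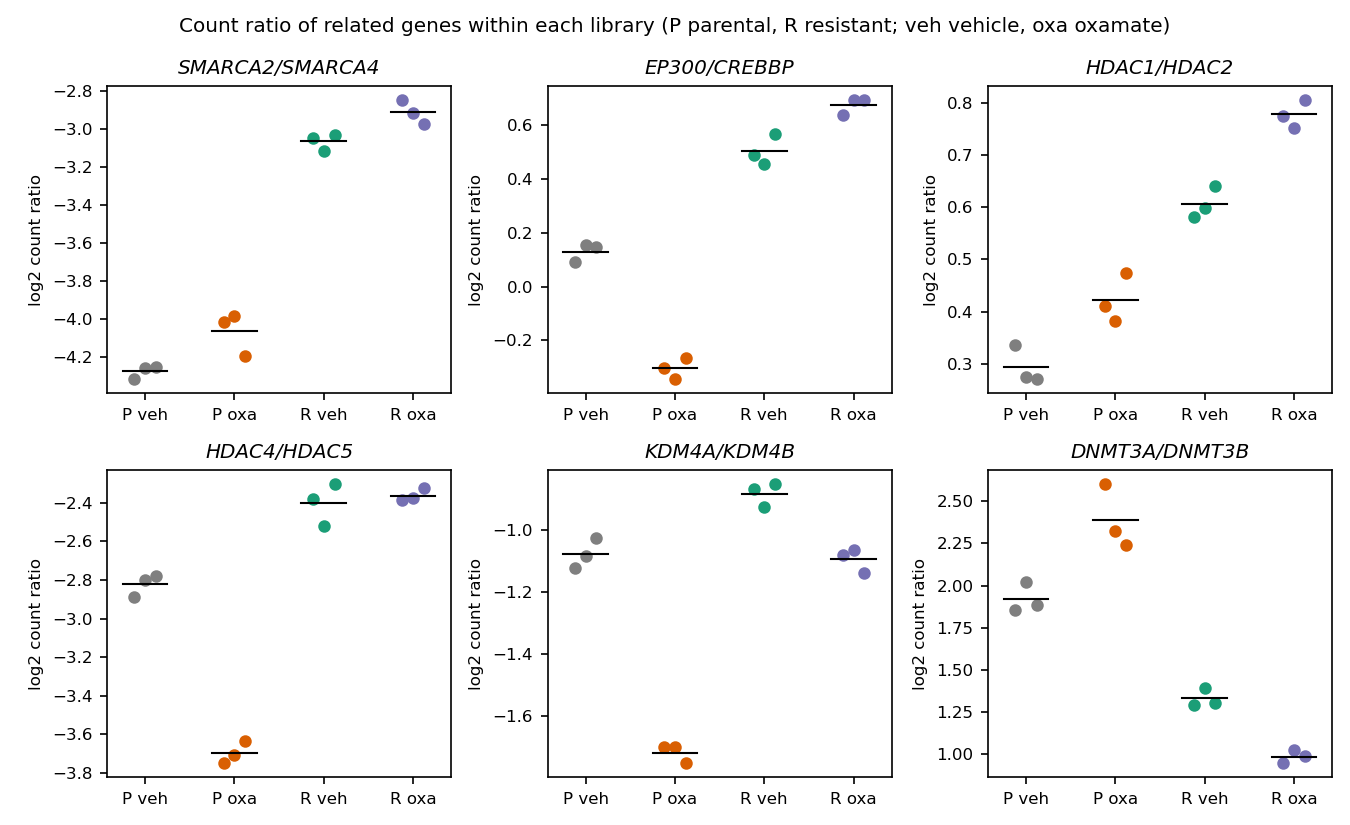
Log2 ratio of the counts of 2 related genes within each library (points, 3 per group) with the group mean (line), for 6 pairs. The SMARCA2 to SMARCA4 ratio rises from about -4.28 in vehicle-treated parental cells to -3.07 in vehicle-treated resistant cells, and the EP300 to CREBBP ratio changes sign after oxamate in parental cells.

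Grouped by cofactor, each group of enzymes held genes of both directions after oxamate in parental cells, except KDM1A, the single flavin-dependent enzyme. Of the 14 tested enzymes that use 2-oxoglutarate, 5 rose and 5 fell after oxamate in parental cells, 5 rose and 1 fell in resistant cells, and 8 were higher and 4 lower in resistant than in parental cells under vehicle. Of the 8 zinc-dependent deacetylases 4 rose and 2 fell after oxamate in parental cells, and of the 4 sirtuins 3 rose and 1, SIRT1, fell. The 3 that rose, SIRT3, SIRT6 and SIRT7, had log2 fold changes of 0.17, 0.080 and 0.14. None of these 3 calls was kept under every other processing setting. Of the 5 methyltransferases that use S-adenosylmethionine 2 rose and 1 fell. Of all genes tested 28.3% rose and 30.4% fell in parental cells, 9.01% rose and 12.5% fell in resistant cells, and 38.4% were higher and 37.3% lower between the vehicle-treated cell types, and with so few genes in each group these counts are a description only.

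A wider list of 135 other chromatin genes, of which 131 were tested, gave 23 that rose and 73 that fell after oxamate in parental cells, with a median log2 fold change of -0.12. These were 17.6% and 55.7% of the list, against 28.3% and 30.4% of all genes, whose median was 0.0030. The gene with the smallest p among those that fell was KAT6A, an acetyltransferase of the MYST family, with -0.69 ± 0.034 (SE, adjusted p = 1.98e-10). Of its 23 histone methyltransferases 17 fell and 2 rose, and of its 29 other remodelers and corepressors 18 fell and 5 rose. In resistant cells 15 of the 131 rose (11.5%, against 9.01% of all genes) and 24 fell (18.3%, against 12.5%), with the remodeler CHD8 at 0.17 ± 0.031 (SE, adjusted p = 0.00132) and the hydroxylase JMJD6 at -0.29 ± 0.033 (SE, adjusted p = 3.12e-05) holding the smallest p. Between the vehicle-treated cell types 61 were higher (46.6%, against 38.4%) and 47 lower (35.9%, against 37.3%), with the methyltransferase NSD1 at 0.81 ± 0.034 (SE, adjusted p = 4.90e-12) and UHRF2, a relative of the DNMT1 partner UHRF1, at -1.16 ± 0.029 (SE, adjusted p = 1.46e-14). Between the oxamate-treated cell types 66 were higher (50.4%, against 40.6%) and 49 lower (37.4%, against 39.7%), led by NSD1 with 1.34 ± 0.035 (SE, adjusted p = 1.17e-14) and JMJD6 with -1.43 ± 0.032 (SE, adjusted p = 1.66e-15). The difference between the responses was positive for 60 (45.8%, against 22.7%) and negative for 23 (17.6%, against 21.4%).

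Several of the genes that changed most have long transcripts, whereas that of BMI1 has 3428 bases. A relation of the changes to the size of the loci was not computed. On GRCh38 (GENCODE release 29), ARID1A spans chr1:26693236-26782110 and EP300 chr22:41091786-41180079, both on the plus strand, and DNMT1 spans chr19:10133345-10231286 on the minus strand. ARID1A, EP300, ARID2, TET2 and SMARCA2 have longest coding transcripts of 8583, 9587, 8642, 10166 and 7061 bases, and SIRT6, SIRT7 and HDAC3 of 1641, 1743 and 1959 bases. Across the 51 genes, the log2 fold change after oxamate in parental cells correlated with log2 transcript length with Pearson's r = -0.35 and Spearman's rho = -0.32. The same measure between the vehicle-treated cell types gave r = 0.42 and rho = 0.41. Across 12683 genes with a coding transcript in the annotation the values were r = -0.14 and rho = -0.17, and r = 0.18 and rho = 0.24. The GC content of the transcript gave r = -0.39 and rho = -0.40 over the 51 genes between the vehicle-treated cell types, against r = -0.060 and rho = -0.056 over all. These are descriptions across genes measured in the same libraries, and genes are not independent replicates. The part of transcript length and GC content in the results was not tested.

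**Figure D5:**
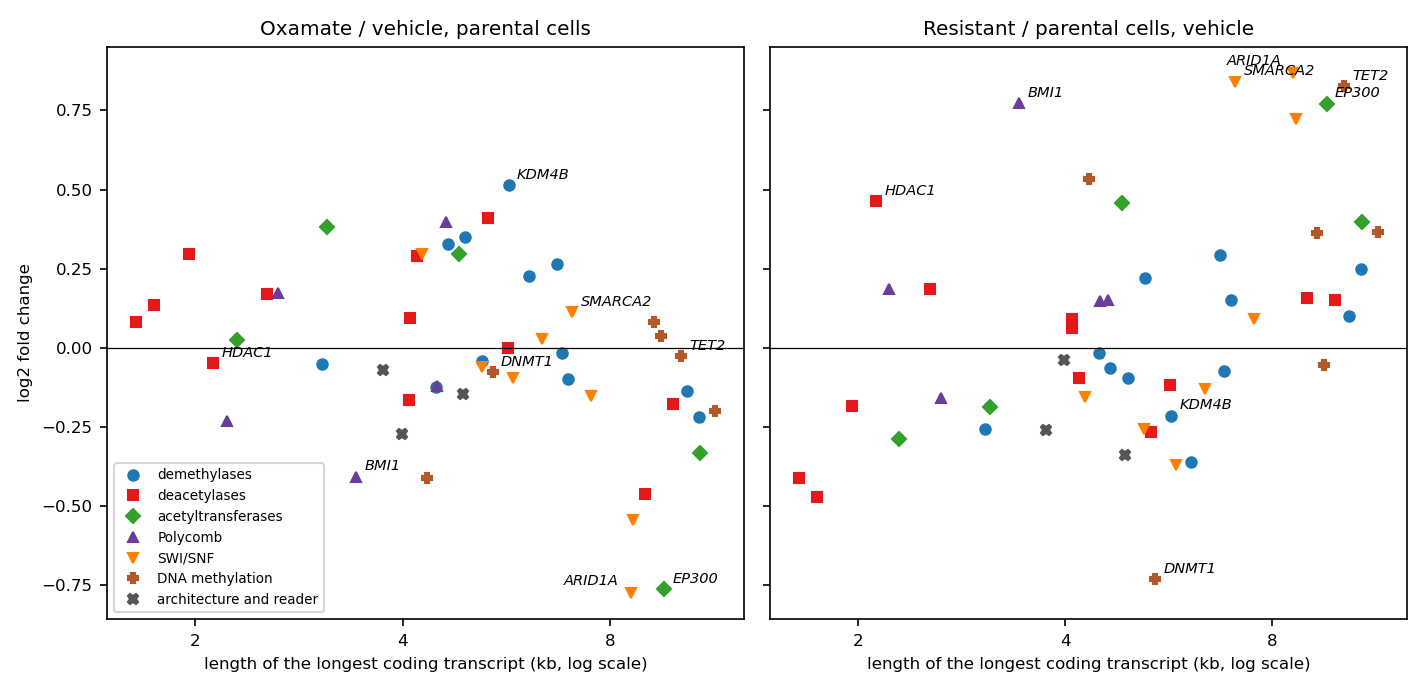
Log2 fold change of the 51 tested genes against the length of their longest coding transcript (kilobases, log scale), after oxamate in parental cells (left) and between vehicle-treated resistant and parental cells (right). EP300 (9587 bases) and ARID1A (8583 bases) are the lowest points on the left and among the highest on the right, while BMI1 (3428 bases) and HDAC1 (2124 bases) are shorter genes that were higher in resistant cells.

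The promoters of KDM4B, HDAC1, BMI1 and ARID1A were chosen by hand among the windows without an annotated exon. Each of these genes had the smallest p of its class in some of the comparisons. EP300 and DNMT1 also did, but their windows overlapped an exon and are not shown. DNMT3B and TET3 did as well, and their windows held no annotated exon, but they were not chosen. Each line gives the 250 bases before the first listed transcript start, from RefSeq on GRCh38.p14, on the plus strand and 5′ to 3′, and none of these windows holds an exon annotated in GENCODE release 29. The window of ARID1A lies within the span of the gene given above. Capitals mark the core of the hypoxia response element, ACGTG or GCGTG on either strand, which the E box CACGTG also contains.
KDM4B (chr19:4968863-4969112): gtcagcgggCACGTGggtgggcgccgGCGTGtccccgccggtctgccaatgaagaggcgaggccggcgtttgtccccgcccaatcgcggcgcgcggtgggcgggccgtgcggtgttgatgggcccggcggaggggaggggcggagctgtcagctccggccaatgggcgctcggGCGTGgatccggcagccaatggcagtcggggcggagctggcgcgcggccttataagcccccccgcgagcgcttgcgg
HDAC1 (chr1:32291833-32292082): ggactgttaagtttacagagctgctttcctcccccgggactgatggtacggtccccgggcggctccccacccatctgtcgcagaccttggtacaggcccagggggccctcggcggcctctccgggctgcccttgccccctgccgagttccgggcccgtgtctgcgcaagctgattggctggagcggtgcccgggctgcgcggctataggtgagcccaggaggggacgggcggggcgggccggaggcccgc
BMI1 (chr10:22320849-22321098): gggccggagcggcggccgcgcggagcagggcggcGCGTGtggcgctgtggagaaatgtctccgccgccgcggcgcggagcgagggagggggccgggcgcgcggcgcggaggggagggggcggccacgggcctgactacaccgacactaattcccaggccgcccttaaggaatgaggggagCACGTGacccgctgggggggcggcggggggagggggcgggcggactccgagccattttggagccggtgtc
ARID1A (chr1:26695765-26696014): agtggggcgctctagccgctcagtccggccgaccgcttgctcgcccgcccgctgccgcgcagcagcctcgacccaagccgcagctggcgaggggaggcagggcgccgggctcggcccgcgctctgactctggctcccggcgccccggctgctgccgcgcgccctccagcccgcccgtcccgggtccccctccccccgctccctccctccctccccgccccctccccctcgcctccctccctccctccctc
The KDM4B window held 4 matches and the BMI1 window 3, counting both strands, so that CACGTG counts as 2, and the windows of HDAC1 and ARID1A held 0. The windows of TET3 and DNMT3B, which are not shown, held 5 and 0. KDM4B rose and BMI1 fell after oxamate in parental cells. Windows were found for 47 of the 53 genes, and 29 of them (61.7%) held a match, against 43.1% of the windows of 27305 genes. By direction after oxamate in parental cells, a match was present in 9 of 15 genes that rose, 15 of 19 that fell and 4 of 11 that did not pass the test. The E box was present in 9 of the 47 windows (19.1%), against 6.49% of all. The windows of all genes were neither limited to the genes tested here nor matched for GC content, so these shares do not test an enrichment. A match is a description of the sequence and not evidence of binding.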

How the data were processed

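RNA from MIAPaCa2 cells was sequenced in 12 libraries, 3 for each of the 4 groups, which were taken from the deposited labels. Per the study's methods, mRNA was enriched with oligo(dT) beads. The authors deposited 1 table of RSEM expected counts per gene symbol, without normalization. The submitters' processing notes name Bowtie2 2.1.0, RSEM 1.2.15 and the genome build hg38, and the strand setting is not given in the sources used here. RSEM divides reads shared by several transcripts, which left 11.6% of the values fractional, and a gene with a near-identical copy is uncertain.

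After rounding of the expected counts, edgeR 4.0.16 was run under R 4.3.3 (filterByExpr, TMM, glmQLFit and glmQLFTest on 4 group means), which left 14582 genes, and p-values were adjusted by the Benjamini-Hochberg method over all of them. The difference between the oxamate responses was a contrast of the same fit. The test was tried on simulated counts with known changes. Library totals ran from 46698729 to 114222169, and precision is limited by 3 replicates per group and, for low genes, by counting. Alternatives were other scalings, other filters, counts not rounded, fits on only the libraries compared, limma-voom (limma 3.58.1), DESeq2 1.42.0, a replicate block and each library left out. A fit without the replicate 3 libraries of oxamate-treated parental and vehicle-treated resistant cells was added only once values were known.

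The members, the wider list and its classes were chosen with earlier results of these data known. Values in every library were given for genes past 1.5-fold at an unadjusted p under 0.05 in any contrast and for the gene of each class with the smallest p in each comparison. From the wider list, in which 9 genes were matched by an older symbol, the gene with the smallest p in each direction and comparison was named. A gene of this list and a marker gene are not reported here. Transcript lengths came from GENCODE release 29 and promoters from RefSeq on GRCh38.p14.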

Additional observations from a re-analysis of the deposited data

Results flagged for a closer look

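For 32 of the 51 tested genes the response to oxamate differed between resistant and parental cells by the test of the difference itself (edgeR's quasi-likelihood test, Benjamini-Hochberg adjusted p under 0.05 over all genes), against 44.2% of all genes tested. Differences are resistant minus parental, on the log2 scale. The shares of all genes with the joint calls described below were not computed.

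The responses passed the test in opposite directions for 5 of them. KDM5A (0.36), KDM5B (0.24) and TET3 (0.44) fell in parental cells and rose in resistant cells, whereas KDM6B (-0.38) and HDAC5 (-0.52) rose in parental cells and fell in resistant cells. Of these, KDM5B, KDM6B and HDAC5 lost the call in resistant cells in several fits that left out a single library, and TET3 lost the call in parental cells without replicate 1 of oxamate-treated parental cells (-0.14).

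Another 12 genes fell in parental cells and did not pass the test in resistant cells, with differences of 0.84 for EP300, 0.83 for ARID1A, 0.63 for DNMT3B, 0.57 for ARID2, 0.48 for BMI1, 0.39 for HDAC4, 0.24 for CREBBP, 0.22 for CTCF, 0.20 for BRD2, 0.15 for SUZ12, 0.14 for KDM2A and 0.13 for HDAC2. Without replicate 3 of oxamate-treated parental cells and replicate 3 of vehicle-treated resistant cells, the libraries of their groups richest in nuclear-retained RNA, the difference was 0.94 for EP300, 0.94 for ARID1A and 0.80 for DNMT3B.

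The 9 genes that rose in parental cells and did not pass the test in resistant cells had differences of -0.35 for EZH1, -0.35 for KDM3A, -0.31 for SMARCC2, -0.27 for KAT2B, -0.25 for KDM5C, -0.19 for HDAC6, -0.17 for SIRT6, -0.16 for EZH2 and -0.12 for HDAC7. Without replicate 3 of oxamate-treated parental cells the difference was -0.23 for EZH1 and -0.12 for HDAC6. KDM4B (-0.37), KDM4C (-0.22) and HDAC3 (-0.11) rose in both cell types and differed in size. The call of KDM4C in resistant cells was lost in most fits that left out a library of that comparison. HDAC1 (0.17) rose and KAT5 (-0.16) fell in resistant cells and did not pass the test in parental cells, and DNMT1 (0.13) passed in neither. KAT5 lost its call in resistant cells in most fits that left out a library of that comparison. The call of the difference was lost in 9 of the fits that left out 1 library for KAT5 and for DNMT1, in 8 for HDAC7, in 5 for HDAC3 and for KAT2B and in 2 for HDAC6.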

How the results depend on the processing

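The 51 genes gave 175 calls at an adjusted p under 0.05 over the 4 comparisons and the difference between responses. All 175 kept their direction and side of the threshold with counts not rounded and with the replicate block, and between 167 (DESeq2) and 173 (limma-voom) did so with RLE size factors, a mean count of at least 25, no filter on low counts, DESeq2 or limma-voom. Upper-quartile factors kept 159 and library size alone 128, and fits on only the libraries compared kept 137 and lost 6, the difference between responses not being fitted there. The median of all genes moved under library size alone by 0.22 between the vehicle-treated and 0.32 between the oxamate-treated cell types (log2). With the replicate block 18 genes rose and 22 fell in parental cells and 9 rose and 8 fell in resistant cells, against 18, 21, 8 and 6 without it. Same-numbered replicates of different groups correlated by -0.0998 to 0.37 and 6 of 18 such pairs by over 0.1, so the numbers were not taken to pair the samples.

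The scaling mattered most. With library size alone, the number that fell in resistant cells was 1 (2 with upper-quartile factors), 6 genes were lower and 11 over 1.5-fold between the vehicle-treated cell types, 9 were lower between the oxamate-treated cell types, and the difference between responses was positive for 26 and negative for 6. Under that scaling the log2 fold changes of these calls for lower genes turned positive: between the vehicle-treated cell types EZH2 (0.061), HDAC3 (0.037), HDAC8 (0.10), KDM3A (0.12), KDM3B (0.15, and 0.0046 with upper-quartile factors), KDM4B (0.0053), SMARCC1 (0.090) and SMARCC2 (0.064), and between the oxamate-treated ones BRD2 (0.18), DNMT3A (0.11), EZH1 (0.13), EZH2 (0.0039), HDAC3 (0.031), HDAC6 (0.037), KDM1A (0.14), KDM3B (0.22), KDM4C (0.036), KDM6B (0.23), RAD21 (0.16), SMARCA4 (0.027), SMARCB1 (0.038) and SMARCC1 (0.15). The cause was not tested.

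The number that rose in resistant cells was 5 with no filter on low counts and 13 without both replicate 3 libraries rich in nuclear-retained RNA, a fit chosen after seeing the data. With each library left out it was between 5 and 8, and the number that fell between 1 and 4. Of the calls, 6 of 14 in resistant cells held in every fit that left out a library, against 34 of 39 in parental cells, 37 of 43 and 44 of 47 between cell types and 26 of 32 for the difference. Without replicate 3 of oxamate-treated parental cells KAT2A was lower between the oxamate-treated cell types by a log2 fold change of -0.19 in place of -0.38, and the responses of parental cells were -0.31 in place of -0.41 for BMI1 and -0.56 in place of -0.41 for DNMT3B, both still called. The calls of HDAC8 (-0.056) and KDM5B (0.065) between the vehicle-treated cell types were lost without replicate 3 of vehicle-treated resistant cells, that of KDM3A (-0.058) without replicate 3 of vehicle-treated parental cells, and that of RAD21 in parental cells (-0.044) without replicate 3 of the treated group. Counting error was widest for the low genes, such as TET2 and DNMT3B.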
